A study of Homo sapiens with 12 samples.

Results

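Heme and iron handling was followed through 10 genes of a count table that holds 57500 genes. The 10 genes were taken by symbol and cover heme transport (SLC48A1), heme breakdown (HMOX1, BLVRB), iron storage (FTH1, FTL), iron uptake (TFRC, SLC11A2), iron export (SLC40A1) and heme synthesis (ALAS1, FECH). SLC48A1 was picked because its RNA was lower after TGF-β in PEO4 cells, so its values in that comparison are given as a description without a test. The other genes joined it for their roles in the same pathway. All 10 genes passed the filter on low counts in both comparisons.

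The study sequenced ribosome-depleted total RNA from 3 established human cancer cell lines. SW480 is a colorectal line from a primary tumour, and SW620 is a colorectal line from a metastatic site of the same patient. PEO4 is an ovarian cancer line, grown either in control medium or with recombinant human TGF-β at 10 ng/mL for 6 days, a cytokine that drives epithelial cells toward a mesenchymal state. Each of the 4 groups had 3 libraries that the labels call biological replicates. Neither SW line received a treatment, and no line carried an engineered allele that the labels mention. Each tumour stage was represented by 1 line, so stage and line cannot be told apart. PEO4 grew in RPMI and the SW lines in DMEM, so medium and line cannot be told apart between them.

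Cells take up iron bound to transferrin through the transferrin receptor, store it inside ferritin shells built of heavy and light chains, and release it through ferroportin. Heme is assembled in mitochondria, moved between compartments by dedicated transporters, and opened by heme oxygenase into biliverdin, carbon monoxide and free iron. Much of the control is exerted on RNA. Iron regulatory proteins bind a short hairpin, the iron-responsive element, and block translation where it lies in a 5′ UTR or protect the RNA where it lies in a 3′ UTR. RNA levels of ferritin and ferroportin therefore need not follow their protein levels.

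Library totals ran from 14531420 to 22028956 counts, and a count of 0 in a library allowed up to 0.136 to 0.206 CPM, which is the count scaled to a common library total, counting error only. The ovarian markers summed to 2927 to 8881 CPM in PEO4 and to 107 to 200 CPM in the SW lines. All 6 had more than 10 counts in every SW480 library. PAX8, WT1, MUC16 and MSLN had higher means in both PEO4 groups than in either SW line. SOX17 was lower in PEO4 (1.60 CPM in controls, 1.80 CPM with TGF-β) than in SW480 (2.53 CPM) and SW620 (3.08 CPM). FOLR1 (12.7 CPM in controls, 8.70 CPM with TGF-β) was highest in SW620 (16.8 CPM). The colorectal markers summed to 34.7 to 55.5 CPM in SW480, where 2 of 6 had more than 10 counts in every library, to 195 to 296 CPM in SW620 and to at most 2.69 CPM in PEO4. Erythroid markers, which would mark red cell precursors with high heme synthesis, summed to 2.68 to 5.68 CPM over all 12 libraries. PEO4 control replicate 1 lay at -0.169 on the first principal component of the PEO4 libraries, between the other controls (-35.2 and -32.0) and the TGF-β libraries (11.5 to 30.8). In SW620 replicate 3, 1.22% of the counts were estimated to be PEO4-like, from 26 genes seen in PEO4 and nearly absent from the other SW libraries.

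Iron-responsive elements were looked up first, because iron regulatory proteins act on the RNAs that carry them. In GENCODE 29 (GRCh38) a C, 5 bases, the loop CAGTGN and 5 further bases able to pair with the 5 before the loop were found in the 5′ UTR of 3 of the 10 genes and in the 3′ UTR of 1. Over the whole annotation, 31 of 19000 genes with a 5′ UTR held such a match (0.163%), as did 128 of 19552 genes with a 3′ UTR (0.655%). The matches are printed as DNA on the gene's strand, 5′ to 3′, with the loop of 6 bases in capitals.
FTH1, 5′ UTR, chr11:61967575-61967601, minus strand: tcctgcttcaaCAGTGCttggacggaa
FTL, 5′ UTR, chr19:48965336-48965362, plus strand: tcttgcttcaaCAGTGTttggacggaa
SLC40A1, 5′ UTR, chr2:189580662-189580688, minus strand: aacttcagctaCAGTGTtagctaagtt
TFRC, 3′ UTR, chr3:196050464-196050490, minus strand: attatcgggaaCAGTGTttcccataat
TFRC, 3′ UTR, chr3:196050511-196050537, minus strand: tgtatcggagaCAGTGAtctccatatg
TFRC, 3′ UTR, chr3:196050576-196050602, minus strand: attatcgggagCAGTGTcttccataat
TFRC, 3′ UTR, chr3:196050980-196051006, minus strand: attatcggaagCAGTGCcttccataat
Both ferritin genes carry nearly the same hairpin, while 4 separate matches of this form were found in TFRC. Hairpins of another form were not searched for. SLC48A1, HMOX1, BLVRB, SLC11A2, ALAS1 and FECH had no match of this form in the UTRs annotated here, which says only that these letters were not found there.

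SLC48A1 (ENSG00000211584, chr12:47753916-47782753, plus strand, GRCh38) encodes HRG1, a membrane transporter that carries heme out of endosomes and lysosomes into the cytosol. Its RNA was lowest in SW620, high in SW480 and in untreated PEO4, and lower in PEO4 with TGF-β than without it. The promoter is printed because SLC48A1 carries the largest drop of the 10 genes between the SW lines. RefSeq (GRCh38.p14) places the 250 bases before its start at chr12:47772988-47773237 on the plus strand, with a GC content of 74.0%. This window lies inside the GENCODE gene, which begins further upstream, at 47753916. Which start these cells use was not tested. The capitals mark 4 GC boxes, GGGCGG, the letters bound by SP1-type factors.
SLC48A1 promoter: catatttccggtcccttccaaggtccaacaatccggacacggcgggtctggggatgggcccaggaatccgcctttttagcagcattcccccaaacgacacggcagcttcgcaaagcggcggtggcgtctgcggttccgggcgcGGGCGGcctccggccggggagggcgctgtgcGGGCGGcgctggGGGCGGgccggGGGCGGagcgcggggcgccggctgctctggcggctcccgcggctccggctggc
On both strands, 42.6% of 35116 RefSeq promoters of this length hold a GC box, and so do 8 of the 11 promoter entries that matched 8 of the 10 genes. HMOX1 and FTH1 had no promoter entry, so their promoters were not searched for any of these motifs. The antioxidant response element of NRF2, TGACNNNGC, was found in 10.9% of all promoters and among the 11 entries in FECH only. The palindrome GTCTAGAC bound by SMAD factors (0.182% of all promoters) and the E-box CACGTG (6.34%) were found in none of the 11 entries.

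Between the SW lines, SLC48A1 fell 10.1-fold in SW620. It stood at 586, 345 and 615 CPM in SW480 replicates 1 to 3, and at 46.3, 42.2 and 68.7 CPM in SW620 replicates 1 to 3. Every SW620 library lay far below the lowest SW480 library. The log2 fold change was -3.33 ± 0.29 (SE, n = 3 against 3), with a 95% interval of -3.98 to -2.68 and an adjusted p of 4.35e-05 by edgeR's quasi-likelihood test. It kept its call in all 17 alternative analyses, with log2 fold changes of -3.57 to -3.15. The PEO4-like counts estimated for SW620 replicate 3 would make up 8.97% of that library's SLC48A1 counts. Within its annotated exons, 83 bases overlap RAPGEF3 and 32 bases overlap HDAC7 on the other strand, of 4921 in all.

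In PEO4, SLC48A1 stood at 676, 682 and 726 CPM in the control libraries and at 338, 377 and 359 CPM with TGF-β. The groups did not overlap, and the log2 fold change was -0.97 ± 0.08 (SE). Across the 4 groups, the means fell in the order PEO4 control (695 ± 27.3 CPM, SD, n = 3), SW480 (516 ± 148 CPM), PEO4 with TGF-β (358 ± 19.7 CPM) and SW620 (52.4 ± 14.3 CPM). SW480 and PEO4 with TGF-β overlapped, because SW480 replicate 2 was as low as the treated PEO4 libraries. The highest group mean was 13.3 times the lowest.

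**Figure D1:**
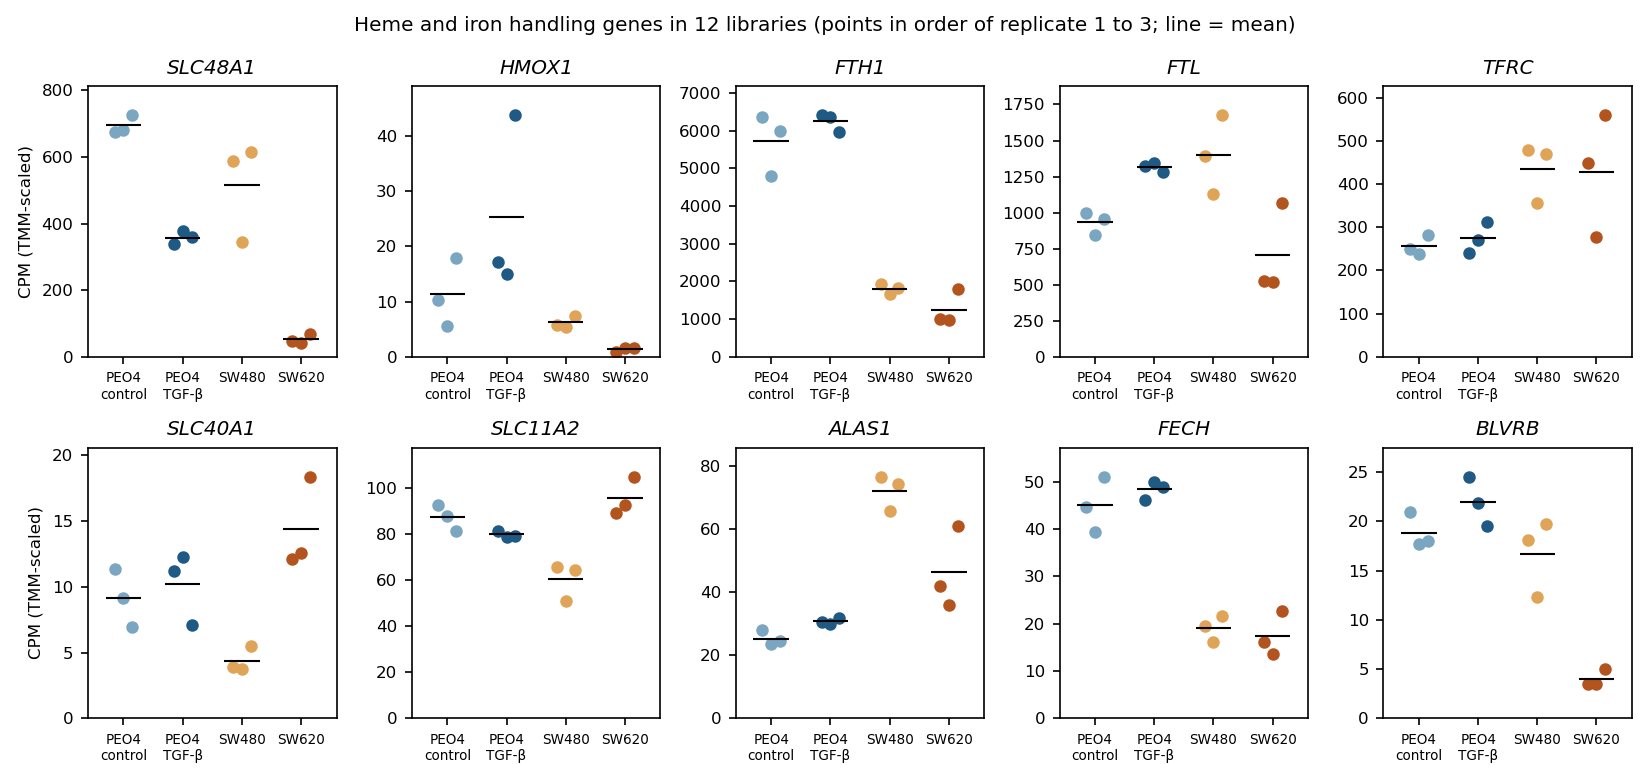
Levels of the 10 genes in the 12 libraries, in CPM on a linear axis that differs between genes, by group; points are libraries and bars are group means. SLC48A1, HMOX1 and BLVRB are lowest in SW620, while SLC40A1 is highest there.

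Of the 10 genes, 7 passed the test between SW480 and SW620, where 30.5% of all 20941 genes tested did so. SLC48A1, HMOX1, BLVRB, FTL and ALAS1 were lower in SW620 (17.0% of all genes were called lower), and SLC40A1 and SLC11A2 were higher (13.5% of all genes). The median log2 fold change of the 10 was -0.62, beside 0.03 over all genes tested. For 7 of the 10 genes the libraries of the lines did not overlap, beside 43.6% of all genes tested. FTH1, TFRC and FECH did not pass.

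Both heme breakdown genes of the 10 were lower in SW620. HMOX1 (ENSG00000100292, chr22:35380361-35394214, plus strand) encodes the inducible heme oxygenase, which opens the heme ring and frees its iron. HMOX1 stood at 5.85, 5.44 and 7.48 CPM in SW480 and at 0.883, 1.58 and 1.64 CPM in SW620. No SW620 library reached the SW480 range, although the SW620 values rest on only 18, 29 and 34 counts. HMOX1 had a log2 fold change of -2.22 ± 0.33, with an adjusted p of 0.00107 (edgeR). PEO4-like counts would make up 13.2% of the HMOX1 counts in SW620 replicate 3. Macrophage and leukocyte markers, a cell class rich in HMOX1, summed to 16.8 to 22.9 CPM in SW480 and to 5.45 to 15.8 CPM in SW620, with MRC1 at 0 in SW480. The lower sum came from LAPTM5 (means of 17.5 and 5.59 CPM in SW480 and SW620), while PTPRC (0.0352 and 2.71 CPM) and CD163 (0.0165 and 0.309 CPM) were not lower in SW620. The part of these markers in the HMOX1 difference was not tested. Each of these libraries came from an established cancer line, and the labels name no macrophages or leukocytes. In bulk RNA, fewer cells of a type and less RNA per cell cannot be told apart.

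BLVRB (ENSG00000090013, chr19:40447765-40465840, minus strand) encodes biliverdin reductase B, an NADPH-dependent reductase of biliverdin IXβ and flavins. BLVRB stood at 18.1, 12.3 and 19.8 CPM in SW480 and at 3.48, 3.49 and 5.06 CPM in SW620, again without overlap. Its log2 fold change was -2.09 ± 0.25, with an adjusted p of 0.000289 (edgeR). HMOX1 and BLVRB kept their calls in all 17 alternative analyses. BLVRA, the reductase of biliverdin IXα, also fell, with a log2 fold change of -1.27 ± 0.26 and an adjusted p of 0.00586. The constitutive oxygenase HMOX2 was not called, so 3 of the 4 genes of heme breakdown were lower, where 17.0% of all genes tested were.

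Of the ferritin chains, FTL passed the test between the SW lines and FTH1 did not. FTL (ENSG00000087086, chr19:48965301-48966878, plus strand) encodes the light chain, which helps iron to mineralize inside the shell. FTL stood at 1395, 1129 and 1677 CPM in SW480 and at 526, 521 and 1067 CPM in SW620. The groups did not overlap, but SW620 replicate 3 lay near the lowest SW480 library and at about double its own group mates. The log2 fold change was -1.03 ± 0.31, with an adjusted p of 0.0324 (edgeR). The call was lost without SW480 replicate 1 (adjusted p = 0.108), SW480 replicate 3 (0.131), SW620 replicate 1 (0.176) or SW620 replicate 2 (0.0625). Over all alternatives its adjusted p ran from 1.23e-05 to 0.912.

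FTH1 (ENSG00000167996, chr11:61959718-61967660, minus strand) encodes the heavy chain, which oxidizes ferrous iron as it enters the shell. FTH1 stood at 1931, 1666 and 1822 CPM in SW480 and at 993, 981 and 1789 CPM in SW620. The groups overlapped through SW620 replicate 3 alone. The log2 fold change of -0.56 ± 0.27 did not pass, with an interval of -1.17 to 0.04 and an adjusted p of 0.149 (edgeR). Without SW620 replicate 3 it was -0.90 and passed, with an adjusted p of 0.0131. Over all alternatives the adjusted p ran from 0.00459 to 1.00. PEO4-like counts would make up 3.90% of the FTH1 counts and 1.23% of the FTL counts in that library. Of the 2030 exonic bases of FTH1, 1267 overlap BEST1 on the other strand, and the strand setting of the counting is not given in the sources used here.

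The balance of the 2 chains was read as FTH1 counts per FTL count within a library, which carries the unequal length of the transcripts and is compared only between groups. The ratio was 1.38, 1.48 and 1.09 in SW480 and 1.89, 1.88 and 1.68 in SW620. Every SW620 library lay above every SW480 library, also replicate 3. The log2 ratio was 0.48 higher in SW620, with a two-sided exact permutation p of 0.1, the smallest that 3 against 3 libraries allow. FTH1 and FTL together took up 0.352% of all counts in SW480 and 0.211% in SW620. Near-identical copies took few reads: the 25 annotated FTH1 pseudogenes summed to at most 1.40% of the FTH1 counts and the 16 of FTL to at most 0.566%. The most read of them were FTH1P3, with 426 counts over all libraries, and FTLP6, with 117.

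**Figure D2:**
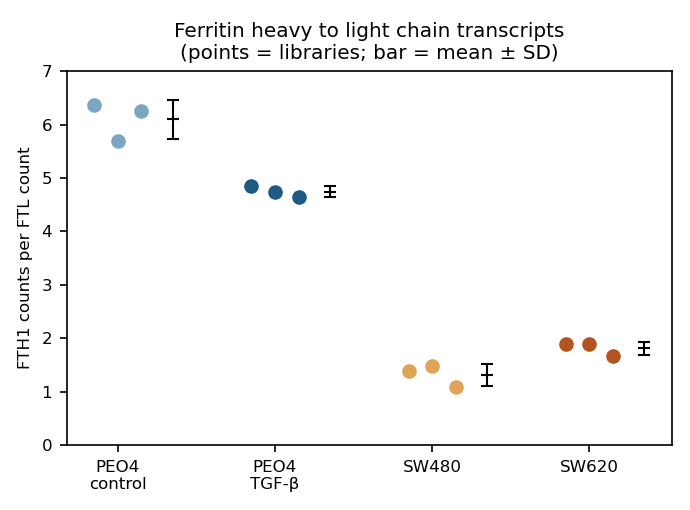
FTH1 counts per FTL count in each library, by group; points are libraries and bars are group means. The ratio is 4.64 or more in every PEO4 library and 1.89 or less in every SW library, higher in SW620 than in SW480 and lower with TGF-β than without.

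The iron exporter and an iron importer were higher in SW620. SLC40A1 (ENSG00000138449, chr2:189560579-189583758, minus strand) encodes ferroportin, the exporter of ferrous iron. SLC40A1 stood at 3.92, 3.76 and 5.47 CPM in SW480 and at 12.1, 12.6 and 18.4 CPM in SW620. All SW620 libraries were at more than double the highest SW480 library. SLC40A1 rose by 1.68 ± 0.25 on the log2 scale, with an adjusted p of 0.000991 (edgeR), and the call was kept in all 17 alternative analyses.

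SLC11A2 (ENSG00000110911, chr12:50979401-51028566, minus strand) encodes DMT1, which brings ferrous iron across the apical membrane and out of endosomes. SLC11A2 stood at 66.0, 51.1 and 64.6 CPM in SW480 and at 89.4, 92.7 and 105 CPM in SW620, without overlap. On the log2 scale SLC11A2 rose by 0.63 ± 0.16, with an adjusted p of 0.0151 (edgeR). The call was lost without SW480 replicate 2 (adjusted p = 0.0684) or replicate 3 (0.0786), and the adjusted p ran from 0.000239 to 1.00 over all alternatives. TFRC (ENSG00000072274, chr3:196027183-196082189, minus strand), the transferrin receptor, stood at 356 to 478 CPM in SW480 and 278 to 560.0 CPM in SW620. These ranges overlapped, and the log2 fold change of -0.05 ± 0.26 had an interval of -0.64 to 0.54 and an adjusted p of 0.906 (edgeR). The 4 matches found in its 3′ UTR stand in an RNA whose level spread more within each line than between them.

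Heme synthesis was followed at its entry and at its last step. ALAS1 (ENSG00000023330, chr3:52198086-52214327, plus strand) is the rate-limiting enzyme of the pathway outside red cells. ALAS1 stood at 76.7, 65.6 and 74.2 CPM in SW480 and at 41.9, 36.0 and 61.1 CPM in SW620, without overlap. SW620 replicate 3 was again the highest of its group and came close to SW480 replicate 2. Its log2 fold change was -0.68 ± 0.20, with an adjusted p of 0.0310 (edgeR). The call was lost without SW480 replicate 1 (adjusted p = 0.151), SW480 replicate 3 (0.108), SW620 replicate 1 (0.175) or SW620 replicate 2 (0.0746), within a range over all alternatives of 0.000302 to 1.00. FECH (ENSG00000066926, chr18:57548283-57586772, minus strand), the ferrochelatase that inserts iron into the ring, stood at 16.1 to 21.6 CPM in SW480 and 13.6 to 22.6 CPM in SW620. Its groups overlapped, and its log2 fold change of -0.16 ± 0.21 did not pass (adjusted p = 0.610, edgeR).

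With TGF-β, 7 of the 10 genes had fitted log2 fold changes between -0.14 and 0.27 in PEO4, and none of these passed by edgeR or DESeq2, with ALAS1 alone at an unadjusted p under 0.05 (edgeR). Of the 9 genes other than SLC48A1, only FTL passed the test (edgeR), where 2.26% of all 19064 genes tested did so, 1.27% higher and 0.991% lower. Nothing about the list is read from that count, since the list was built around SLC48A1. The median log2 fold change of the 10 was 0.13, beside -0.02 over all genes tested. The summed ovarian markers were 5239 to 8881 CPM in the controls and 2927 to 4697 CPM with TGF-β, and their part in the differences was not tested. Most of that sum was MUC16 (means of 5713 and 2391 CPM). MSLN (653 and 385 CPM), WT1 (217 and 158 CPM) and FOLR1 (12.7 and 8.70 CPM) also had lower means with TGF-β. PAX8 (558 and 574 CPM) and SOX17 (1.60 and 1.80 CPM) were not lower with TGF-β.

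FTL rose 1.40-fold with TGF-β. FTL stood at 1000.1, 843 and 958 CPM in the controls and at 1324, 1344 and 1283 CPM with TGF-β, and all treated libraries lay above all controls. The log2 fold change was 0.48 ± 0.09, with an adjusted p of 0.0301 (edgeR). The call was kept without control replicate 1 (adjusted p = 0.0154), the library that lay between the groups. Leaving out any of the other 5 libraries (control replicates 2 and 3 and each TGF-β replicate) ended it, with adjusted p values of 0.0732 to 0.148, and a fit of all 12 libraries gave 0.625. Over all alternatives the adjusted p ran from 2.27e-05 to 1.00.

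FTH1 did not pass the test with TGF-β. FTH1 stood at 6377, 4797 and 5982 CPM in the controls and at 6419, 6369 and 5956 CPM with TGF-β. The groups overlapped, with control replicate 2 the lowest, and the log2 fold change of 0.12 ± 0.12 did not pass (adjusted p = 0.678, edgeR). FTH1 counts per FTL count were 6.38, 5.69 and 6.25 in the controls and 4.85, 4.74 and 4.64 with TGF-β. All treated libraries lay below all controls, and the log2 ratio was 0.36 lower on average (difference -0.36), with a two-sided exact permutation p of 0.1, the smallest possible here. Ferritin RNA as a whole took up 0.607% of the counts in the controls and 0.677% with TGF-β. The difference between the lines was larger than either change, with mean ratios of 6.10 ± 0.365 and 4.74 ± 0.103 (SD, n = 3) in PEO4 against 1.32 ± 0.204 in SW480 and 1.82 ± 0.121 in SW620.

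HMOX1 had the highest fitted increase of the 10 genes in PEO4, but its groups overlapped. HMOX1 stood at 10.4, 5.66 and 17.9 CPM in the controls and at 17.3, 14.97 and 43.8 CPM with TGF-β. Replicate 3 was the highest in both groups, and control replicate 3 lay above treated replicates 1 and 2. Each treated library lay above the control of the same number, although the numbers were not taken as pairing. Its log2 fold change of 1.15 ± 0.47 did not pass (adjusted p = 0.259, edgeR). It was 0.49 without TGF-β replicate 3 (adjusted p = 0.556) and 1.66 without control replicate 3 (0.151). It passed with all genes kept in the fit, at 1.17 with an adjusted p of 6.63e-06, which is also the lower end of its range over the alternatives (to 1.00). A fit with the replicate number as a block also called it.

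The remaining genes of heme turnover had small differences in PEO4. ALAS1 stood at 27.9, 23.6 and 24.4 CPM in the controls and at 30.7, 29.9 and 31.7 CPM with TGF-β. These groups did not overlap, as was the case for 21.3% of all genes tested, but the log2 fold change of 0.27 ± 0.10 did not pass (adjusted p = 0.203, edgeR). BLVRB stood at 17.7 to 20.9 CPM in the controls and 19.5 to 24.6 CPM with TGF-β (log2 fold change 0.21 ± 0.12, adjusted p = 0.439). FECH stood at 39.5 to 51.1 CPM and 46.2 to 50.1 CPM in the same order (log2 fold change 0.09 ± 0.10, adjusted p = 0.712). Both ranges overlapped.

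Iron transport RNA did not pass the test in PEO4 for any of its 3 genes by edgeR. TFRC stood at 238 to 283 CPM in the controls and 242 to 311 CPM with TGF-β, and the interval of its log2 fold change, -0.17 to 0.33, spans 0 (0.08 ± 0.11, adjusted p = 0.761). SLC40A1 stood at 6.94 to 11.4 CPM and 7.13 to 12.3 CPM (log2 fold change 0.14 ± 0.24, adjusted p = 0.809). SLC11A2 stood at 81.4 to 92.9 CPM and 79.1 to 81.5 CPM, touching at their edges (log2 fold change -0.14 ± 0.08, adjusted p = 0.412). The exporter that was higher in SW620 had overlapping ranges in PEO4.

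**Figure D3:**
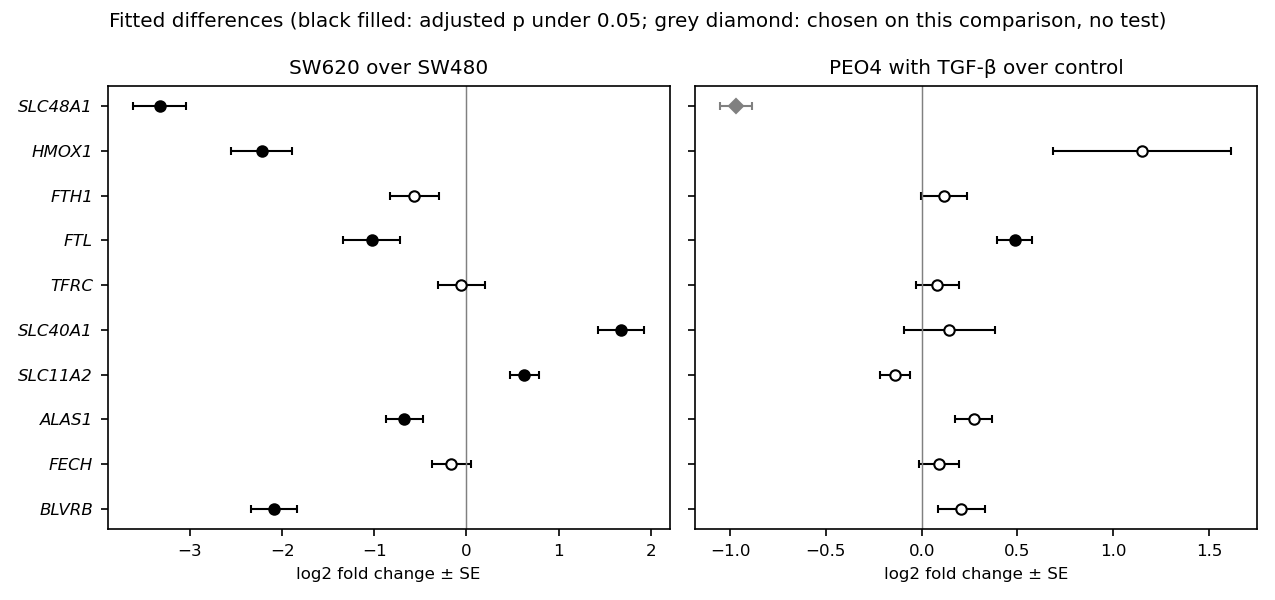
Fitted log2 fold changes with their standard errors for the 10 genes, SW620 over SW480 on the left and PEO4 with TGF-β over control on the right; the horizontal scales differ. Black filled points passed an adjusted p of 0.05, and the grey diamond is SLC48A1 where it was chosen on the comparison. SLC48A1 lies lowest in the left panel, at -3.33. In the right panel it lies at -0.97, where it was chosen for its fall.

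Per kilobase of annotated exon, ferritin led in every group. In untreated PEO4 the means were 2817 CPM per kb for FTH1 and 1063 CPM per kb for FTL, followed by SLC48A1 at 141 and TFRC at 32.6. Heme synthesis lay lower, with FECH at 10.1 and ALAS1 at 9.97 CPM per kb, and HMOX1 (4.70) and SLC40A1 (2.12) came last. In SW620, SLC48A1 had dropped to 10.6 CPM per kb, below TFRC (54.4) and ALAS1 (18.3), and HMOX1 was the lowest at 0.569. These levels use the union of all annotated exons, so a gene whose long isoforms are unused is set too low.

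Levels also differed between the ovarian and the colorectal lines, with medium and line confounded. FTH1 was 3.17 times higher in untreated PEO4 than in SW480, without overlap. FECH was 2.36 times higher there, also without overlap. ALAS1 ran the other way, with 72.2 ± 5.81 CPM (SD, n = 3) in SW480 against 25.3 ± 2.26 CPM in untreated PEO4. These ratios are descriptions and were not tested.

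A wider set of 69 further genes of the pathway, in 9 lists, was counted beside the 10. All lists were chosen with earlier results of these data known. Between the SW lines 17 of the 69 passed, 9 higher and 8 lower, of 64 that could be tested, beside 30.5% of all genes tested. That share is near the background and says nothing particular about the 69. The largest change was in CYBRD1, a duodenal ferric reductase, which averaged 183 CPM in SW480 and 16.1 CPM in SW620 (-3.53 ± 0.23 on the log2 scale, adjusted p = 9.37e-06, edgeR). The median over these 64 genes was -0.02.

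Iron uptake and reduction held the most calls, with 7 of its 11 genes, 5 higher and 2 lower, where 13.5% of all genes tested were called higher and 17.0% lower. STEAP2, a ferric reductase of the endosome, rose with a log2 fold change of 1.04 ± 0.18 (adjusted p = 0.00242), and SLC39A8, a zinc and iron importer, fell (-1.46 ± 0.23, adjusted p = 0.00154). In heme transport 3 of 5 genes passed, beside 30.5% of all genes. FLVCR1, described as a heme exporter, rose (1.02 ± 0.16, adjusted p = 0.00141), while its relative FLVCR2 fell with SLC48A1 (-1.34 ± 0.37, adjusted p = 0.0225). FLVCR2 rests on means of 3.87 and 1.57 CPM, shares 1304 exonic bases with other genes, and lost its call without any 1 of SW480 replicates 1, 2 and 3 and SW620 replicate 1.

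Storage and sensing were mixed in SW620. Over all genes tested, 30.5% passed between the SW lines, 13.5% higher and 17.0% lower. NCOA4, the receptor that carries ferritin to lysosomes for breakdown, rose (1.01 ± 0.26, adjusted p = 0.0158), opposite to FTL, and lost its call without SW480 replicate 1, SW480 replicate 2 or SW620 replicate 1. Of the 12 genes of iron sensing, IREB2, the iron regulatory protein 2, was higher (0.54 ± 0.17, adjusted p = 0.0384), and BMP6, an inducer of hepcidin, was lower (-1.20 ± 0.39, adjusted p = 0.0423), each losing its call without any of SW480 replicates 1, 2 and 3, SW620 replicate 1 and SW620 replicate 3. Both also lost it with no filter, and BMP6 with total-count or upper-quartile scaling. In iron export, HEPHL1, a ferroxidase, was lower (-1.32 ± 0.34, adjusted p = 0.0173), opposite to SLC40A1, and lost its call without replicate 1 of either line. Heme synthesis had ALAS1 as its only call among 13 genes, and the 15 genes of mitochondrial iron and iron-sulfur clusters had only LYRM4 (0.72 ± 0.15, adjusted p = 0.00679), lost without SW480 replicate 1.

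HMOX1 and both ferritins are known targets of NRF2, the regulator of the antioxidant response. Of 9 other NRF2 targets, 3 passed between the SW lines, a share near the 30.5% of all genes. GCLM, the modifier subunit of the glutathione-making ligase, was lower (-1.39 ± 0.28, adjusted p = 0.00498), as was OSGIN1 (-1.26 ± 0.29, adjusted p = 0.00995), which lost its call without replicate 1 of either line. GCLC, the catalytic subunit of the same ligase, was higher (0.61 ± 0.17, adjusted p = 0.0248) and lost its call with no filter and without any of SW480 replicates 1, 2 and 3, SW620 replicate 1 and SW620 replicate 3.

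With TGF-β, 2 of the 69 further genes passed in PEO4, both higher, of 64 that could be tested. Over all genes tested 2.26% passed, 1.27% higher, and nothing particular about the 69 is read from the count. STEAP3, the ferric reductase that works beside the transferrin receptor in endosomes, rose from 47.5 to 70.9 CPM (log2 fold change 0.56 ± 0.07, adjusted p = 0.00721, edgeR). STEAP3 lost its call without control replicate 2 and in a fit of all 12 libraries. In heme breakdown, HMOX2 (0.36, adjusted p = 0.110) and BLVRA (0.47, adjusted p = 0.171) did not pass. The median over the 64 further genes tested was 0.01.

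**Figure D4:**
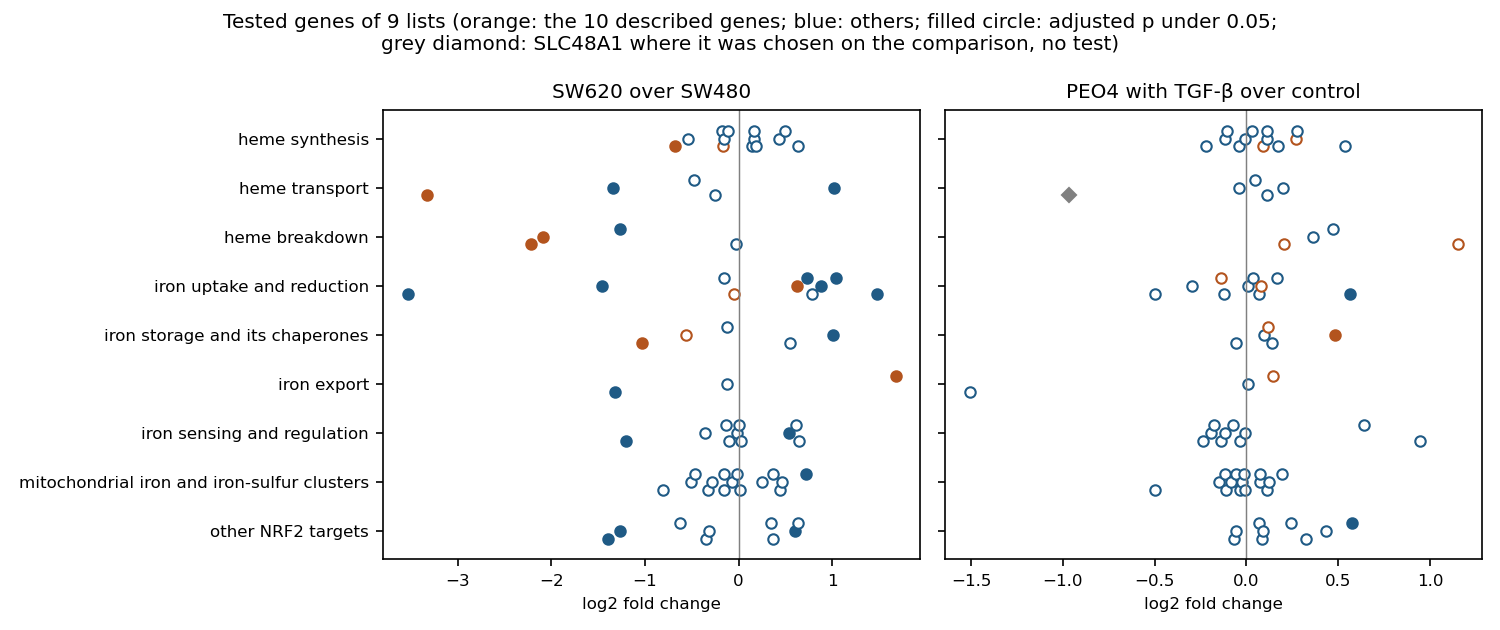
Log2 fold changes of the tested genes of the 9 lists, with the 10 described genes in orange, the others in blue and the grey diamond for SLC48A1 where it was chosen on the comparison; filled circles passed an adjusted p of 0.05, and the horizontal scales differ. In the SW panel CYBRD1 and SLC48A1 lie farthest to the left, at -3.53 and -3.33.

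The authors' deposited tables of differential expression rest on the same libraries. In them, all of the 10 genes lay on the same side of an adjusted p of 0.05 as here between the SW lines. In PEO4 the same held for the genes other than SLC48A1, which was chosen on that comparison. SLC48A1 had a log2 fold change of -3.34 between the SW lines.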

How the data were processed

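The deposited table holds whole-number counts per gene for 12 libraries. Per the submitters' processing notes, the tools were Trimmomatic 0.36, STAR 2.5.2b, featureCounts, Subread 1.5.2 and DESeq2, with GRCh38; annotation and strand setting are not given in the sources used here. The authors' deposited comparison tables also give a log2 fold change and, per the file headers, p-values; they served only to compare calls. The 6 libraries of a comparison were fitted alone in edgeR 4.0.16 (R 4.3.3): filterByExpr, TMM scaling, the two-sided quasi-likelihood test and Benjamini-Hochberg adjustment over all genes, called under 0.05. The SE is the log2 fold change over the square root of F. Levels are CPM with TMM factors over all 12 libraries. Alternatives used DESeq2 1.42.0, limma 3.58.1 (voom), glmTreat, other scalings and filters, and each library left out. Positions and exon lengths come from GENCODE 29, which held 56898 of the 57500 gene IDs.

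The 10 genes and all lists were chosen with earlier results of these data known. Named are all 10 genes, at most the 3 called genes of smallest p per list, the most counted ferritin pseudogenes, and the 5 genes nearest to SLC48A1 in pattern. The result of 1 further list gene is not reported here. Nothing states how separate the replicate cultures were, so p-values measure only the spread between these samples. Intervals of log2 fold changes come from the edgeR fit and include the spread between libraries, while floors for a count of 0 cover counting error only. The scripts were tested on simulated data.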

Additional observations from a re-analysis of the deposited data

How the results depend on the processing

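By edgeR on 6 libraries, 6385 genes were called between the SW lines and 431 in PEO4. Leaving out 1 library gave 4253 (without SW480 replicate 1) to 7419 (without SW620 replicate 3) and 72 (without PEO4 control replicate 2) to 1080 (without PEO4 control replicate 1). A test against a 2-fold change gave 2504 and 9. In PEO4, DESeq2 called 967 genes, a fit without a filter 1457 and a fit of all 12 libraries 165.

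Of the 10 genes, 7 were called between the SW lines (4 to 8 with 1 library left out, 4 against a 2-fold change) and 2 in PEO4 (1 to 2 with 1 library left out). The PEO4 count holds SLC48A1, chosen on that comparison, and nothing is read from it. In PEO4 edgeR called 0 against a 2-fold change and 0 with all 12 libraries, where 0 and 2 had an unadjusted p under 0.05; DESeq2 on 6 libraries called 2. Of the 69 further genes, 17 were called between the SW lines (7 to 22 with 1 library left out, 1 against a 2-fold change). In PEO4, 2 were (0 to 5 with 1 library left out, 4 by DESeq2, 5 without a filter), and edgeR called 0 against a 2-fold change and 0 with all 12 libraries, where 1 and 6 had an unadjusted p under 0.05.

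Uncalled values changed sign when 1 library was left out: SLC40A1 in PEO4 (-0.0162 without control replicate 3, to 0.349), TFRC in PEO4 (-0.0186 without TGF-β replicate 3, to 0.168), FECH between the SW lines (0.0301 without SW620 replicate 2, down to -0.388) and TFRC between them (0.06 without SW480 replicate 1 and 0.23 without SW620 replicate 2, down to -0.282). The log2 ferritin ratio ranged from 0.34 to 0.56 between the SW lines and from -0.41 to -0.33 in PEO4. The cause was not tested.

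The labels number the replicates alike in all groups, without stating a pairing. Deviations of same-numbered libraries had correlations of 0.0606, 0.719 and 0.631 in the SW lines and 0.342, -0.0985 and 0.53 in PEO4. SW480 replicates 2 and 3 and PEO4 control replicates 1 and 3 deviated most like the library of their own number. The numbers were not taken as pairing in the main fit, and whether same-numbered libraries share a batch was not tested. With the replicate block, 10667 and 2102 genes were called, 8 and 3 of the 10, and 34 and 9 of the 69. FTH1 between the SW lines (-0.62, adjusted p = 0.00459) and HMOX1 in PEO4 (1.13, adjusted p = 8.71e-05) then passed.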

Other observations

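The 5 genes whose 4 group means were nearest in pattern to those of SLC48A1, by root mean square distance on the log2 scale among 17184 genes, were HECW1 (0.181), PARD3B (0.243), FAS (0.250), C1QL1 (0.274) and RAB6B (0.287). FAS, a death receptor, averaged 14.7 CPM (untreated PEO4), 10.9 CPM (treated PEO4), 14.2 CPM (SW480) and 1.30 CPM (SW620). HECW1, a ubiquitin ligase, averaged 5.85, 3.68, 5.19 and 0.167 CPM in the same order. In PEO4, RAB6B averaged 25.5 CPM in controls and 23.0 CPM with TGF-β, and PARD3B 46.0 and 37.7 CPM. C1QL1 averaged 8.66 and 4.30 CPM there, so the fall with TGF-β differed in size among the 5. The likeness rests on 4 means, and SLC48A1 was chosen on the PEO4 comparison.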
